A study of Homo sapiens with 9 samples.

Results

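NF-kB, IL1 and TNF signalling was followed through 32 listed genes in a genome-wide CRISPR-Cas9 knockout screen, and 31 of them were measured among 19114 genes. Members were found by gene name, and the rule used no value of the screen, but the list was chosen with earlier results of these data known. The remaining gene, TAB2, had no guide row and was not analysed here. The screen used HEL cells, which are JAK2-mutated human erythroleukemia cells, carrying Cas9 and infected with the Brunello lentiviral library of guide RNAs. Guides were read in 1 library at day 0, in 4 libraries after 12 days under DMSO, the solvent control, and in 4 libraries after 12 days under 200 nM ruxolitinib (RUX), an inhibitor of the JAK2 kinase. All 9 libraries came from this 1 cell line, all cells carried Cas9, and nothing in the sources says that the 4 libraries of a condition were infected separately, so the tests measure the spread between these libraries, which may be technical. Each condition was scored against day 0, as the study did, to ask which knockouts the cells tolerate with and without JAK inhibition.

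NF-kB is a family of dimeric transcription factors that inhibitor proteins, the IkBs, hold in the cytoplasm. Interleukin 1 (through MYD88, IRAK kinases and TRAF6) and TNF (through its receptor, RIPK1 and TRAF proteins) both lead to the TAK1 kinase and the IKK complex, which marks the IkBs for destruction and frees NF-kB. The pathway drives inflammatory genes and survival genes in blood cells, and JAK inhibitors are used in myeloproliferative disease partly for their effect on inflammatory cytokines. A pooled knockout screen reads only whether cells that lost a gene became rarer or more frequent, not whether the pathway was active.

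For every library of day 12, a gene was scored by taking the natural log of each guide's value over its value at day 0, with 5 added to both, and averaging over the gene's guides. Libraries had been scaled to the non-targeting guides. A score of 0 means that the guides changed, on average, as the non-targeting guides did. The study counts its own dependency scores below −0.5 as dependencies, and its beta scores were corrected for copy number. Here the same cutoff was applied to a different score without that correction, so counts below −0.5 cannot be set against the study's. Reads on guides numbered 21983632 at day 0, 21783913 to 26611323 under DMSO and 19631338 to 24526993 under RUX. The 31 genes had 123 guides with a scaled value of at least 30 at day 0, with 45 to 1192 reads per guide and a median of 234. IL1B kept 3 guides and each of the other 30 genes kept 4. DMSO replicate 3 was noisier than the rest, with an SD of 0.46 over its non-targeting guides against 0.26 to 0.30 in the other 7 libraries of day 12.

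Loss of most of these genes left the cells' representation near that of an average gene. Under DMSO, 1 of the 31 genes scored below −0.5, namely IKBKG, against 4.32% of all 19112 scored genes. Under RUX, 0 of the 31 did so, against 4.63% of all genes. The median of the 31 scores was −0.08 under DMSO and −0.07 under RUX, and the median of all genes was −0.08 and −0.09. Scores lay above 0 for 9 of the 31 genes under DMSO, where 31.5% of all genes did, and for 11 under RUX, where 28.5% did.

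None of the 31 genes passed limma at an adjusted p of 0.05 (Benjamini-Hochberg over all genes) in either comparison with day 0, and edgeR also called 0, while DESeq2 called 1, IKBKG under DMSO. For limma, the background was 0.356% of genes called lower under DMSO, 0.544% called lower under RUX, and 0% called higher in each. Over all genes under DMSO, DESeq2 called 163 lower and 4 higher, and edgeR called 103 lower and 0 higher. Under RUX, DESeq2 called 232 lower and 3 higher, and edgeR called 180 lower and 1 higher. At an unadjusted p under 0.05, limma gave 2 of the 31 genes under DMSO (IKBKG and RIPK1) and 3 under RUX (RELB, IKBKG and MYD88), where all genes gave 8.51% and 8.8%. Every comparison with day 0 rests on a single day 0 library, which was assumed to vary like the libraries of day 12. All scores of a gene share that library, so their agreement in sign is not a set of separate observations. The SDs given with the scores are between libraries of day 12 and leave out the error of day 0.

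**Figure D1:**
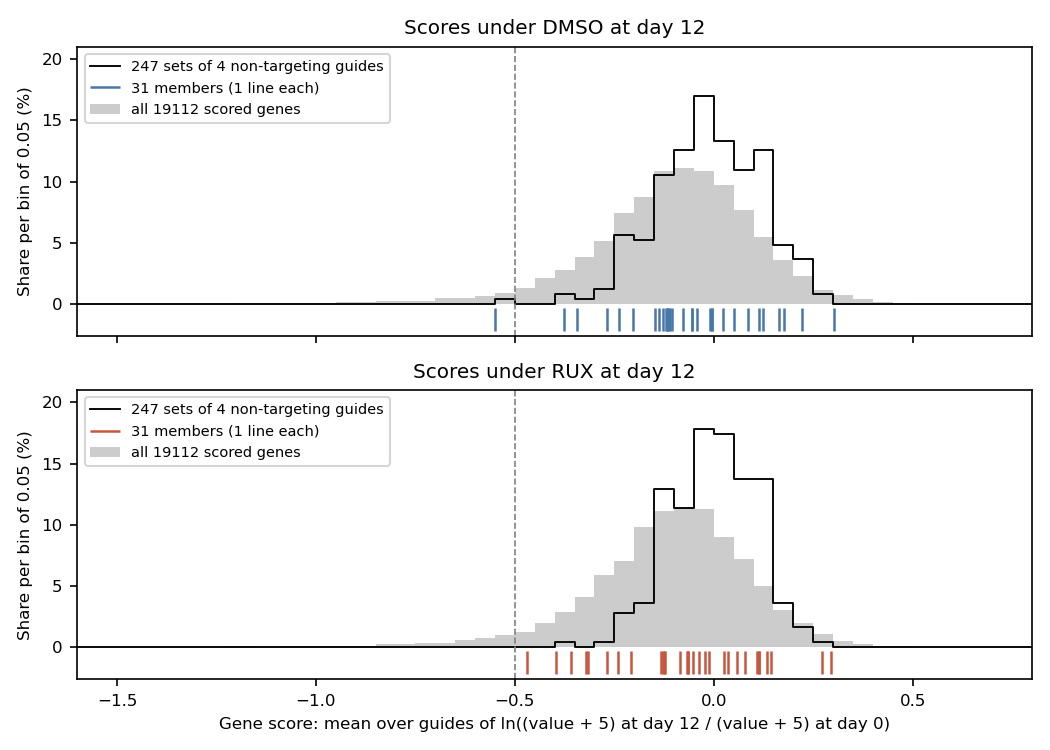
Scores on the horizontal axis (natural log, means of 4 libraries) under DMSO and under RUX. Grey bars give the share of all 19112 scored genes per bin of 0.05, the black line 247 sets of 4 non-targeting guides, and coloured ticks the 31 pathway genes. The dashed line marks −0.5, with only IKBKG to its left under DMSO and no pathway gene under RUX.

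The 5 NF-kB subunits had mean scores below 0 in both conditions, as 68.5% of all genes had under DMSO and 71.5% under RUX, and none passed limma. The sign was not stable for NFKB2 under RUX, at 0.05 without RUX replicate 1, or for NFKB1 under DMSO, at 0.00 without DMSO replicate 4. NFKB1 and NFKB2, the precursors of p50 and p52, scored −0.05 ± 0.18 and −0.12 ± 0.07 under DMSO (SD, n = 4) and −0.05 ± 0.07 and −0.04 ± 0.20 under RUX. RELA, the main transactivating subunit of the canonical arm, scored −0.12 ± 0.14 and −0.13 ± 0.14, and REL, its relative in lymphoid cells, −0.11 ± 0.07 and −0.24 ± 0.14. The RUX minus DMSO differences of these 4 genes ran from −0.13 for REL to 0.08 for NFKB2.

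RELB, the partner of p52 in the non-canonical arm, was the lowest of the 31 genes under RUX and is described library by library because of that value. Its scores under DMSO were −0.06, −0.33, −0.26 and −0.30 in replicates 1 to 4. Under RUX they were −0.50, −0.16, −0.60 and −0.62. Only RUX replicate 2 stood among the DMSO libraries, and the other RUX libraries lay below all DMSO libraries, so the groups overlapped. The mean was −0.24 under DMSO and −0.47 under RUX, and it was −0.57 under RUX without replicate 2. For the means over all libraries, limma gave adjusted p = 0.44 for RUX against day 0 and adjusted p = 0.59 for RUX against DMSO. The guides differed among themselves. Guide sg_15999 averaged −0.65 under DMSO and −1.24 under RUX, and sg_16000 averaged −0.54 and −0.66. The other pair, sg_15997 and sg_15998, lay near 0, between −0.07 and 0.21 in either condition. With the farthest guide left out, the RELB score under RUX was −0.21, and IKBKG, at −0.55, was then the lowest. IKBKG was also the lowest under RUX with edgeR and with DESeq2, at −0.48 in each.

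In the IKK complex, the scaffold gene had the lowest score and neither kinase gene came near −0.5. CHUK and IKBKB, which encode the IKKα and IKKβ kinases, scored −0.08 ± 0.14 and 0.09 ± 0.24 under DMSO (SD, n = 4) and −0.13 ± 0.15 and 0.13 ± 0.09 under RUX. IKBKG, which encodes the scaffold NEMO that joins the kinases to ubiquitin chains, had the lowest score of the 31 genes under DMSO. Its libraries gave −0.53, −0.39, −0.61 and −0.66 under DMSO and −0.39, −0.41, −0.34 and −0.44 under RUX. All 8 libraries lay below day 0, and the DMSO and RUX libraries overlapped. On average IKBKG guides stood at 57.8% of their day 0 value under DMSO and at 67.2% under RUX. The mean score was −0.55 under DMSO (95% confidence interval −0.91 to −0.19, limma adjusted p = 0.26, rank 657 of 19112 from the lowest) and −0.40 under RUX (−0.76 to −0.04, adjusted p = 0.50). DESeq2 on whole reads per gene called IKBKG under DMSO, with a change of −0.64 on the natural log scale and adjusted p = 0.023, while edgeR gave adjusted p = 0.14. The limma score of IKBKG under DMSO stood on the other side of −0.5 with the deposited scaling, at −0.49, and with a pseudocount of 20.

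The 4 IKBKG guides averaged −0.63, −0.49, −0.14 and −0.93 under DMSO and −0.56, −0.36, 0.05 and −0.72 under RUX. Guide sg_22172 was the lowest in both conditions, at 338 reads at day 0, and sg_22171, the one nearest 0, had only 79 reads. IKBKG lies on chrX:154541199-154565046 (GRCh38, GENCODE 44), and a partial copy, the pseudogene IKBKGP1, lies at chrX:154639978-154648275. Of 237 possible Cas9 targets (20 bases followed by NGG, either strand) in the coding exons of IKBKG, 203, or 85.7%, occurred without a mismatch in IKBKGP1 as well. Of the 9 coding exons, 8 had an exact copy there. Exon 9 is printed because the same letters stand at both places, so a guide in it has both as exact targets. It lies at chrX:154563959-154564020 on the plus strand, with its copy at chrX:154640417-154640478 on the minus strand, and capitals mark runs of G or of C, which hold the GG of a possible NGG on either strand.

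IKBKG exon 9: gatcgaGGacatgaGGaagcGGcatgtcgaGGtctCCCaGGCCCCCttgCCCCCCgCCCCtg

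Among the other 30 measured genes, the share of possible targets with an exact match elsewhere in the genome was 36.4% for TRAF6, 8.76% for BIRC3, 8.24% for NFKB2, 6.83% for BIRC2 and 5.23% for RELA, and at most 1.47% for each of the rest. TRAF6, with the next highest share, scored −0.01 and 0.11. The sequences of the library's guides were not used here. Whether the 4 IKBKG guides match both copies, or the TRAF6 guides another place, was not tested, nor was the part of such matches in either gene's scores. The 20 genes nearest to IKBKG in the genome had a median score of −0.15 under DMSO and −0.20 under RUX, and 3 of them lay below −0.5 in each condition. With the median of these neighbours subtracted in every library, IKBKG scored −0.34 under DMSO.

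**Figure D2:**
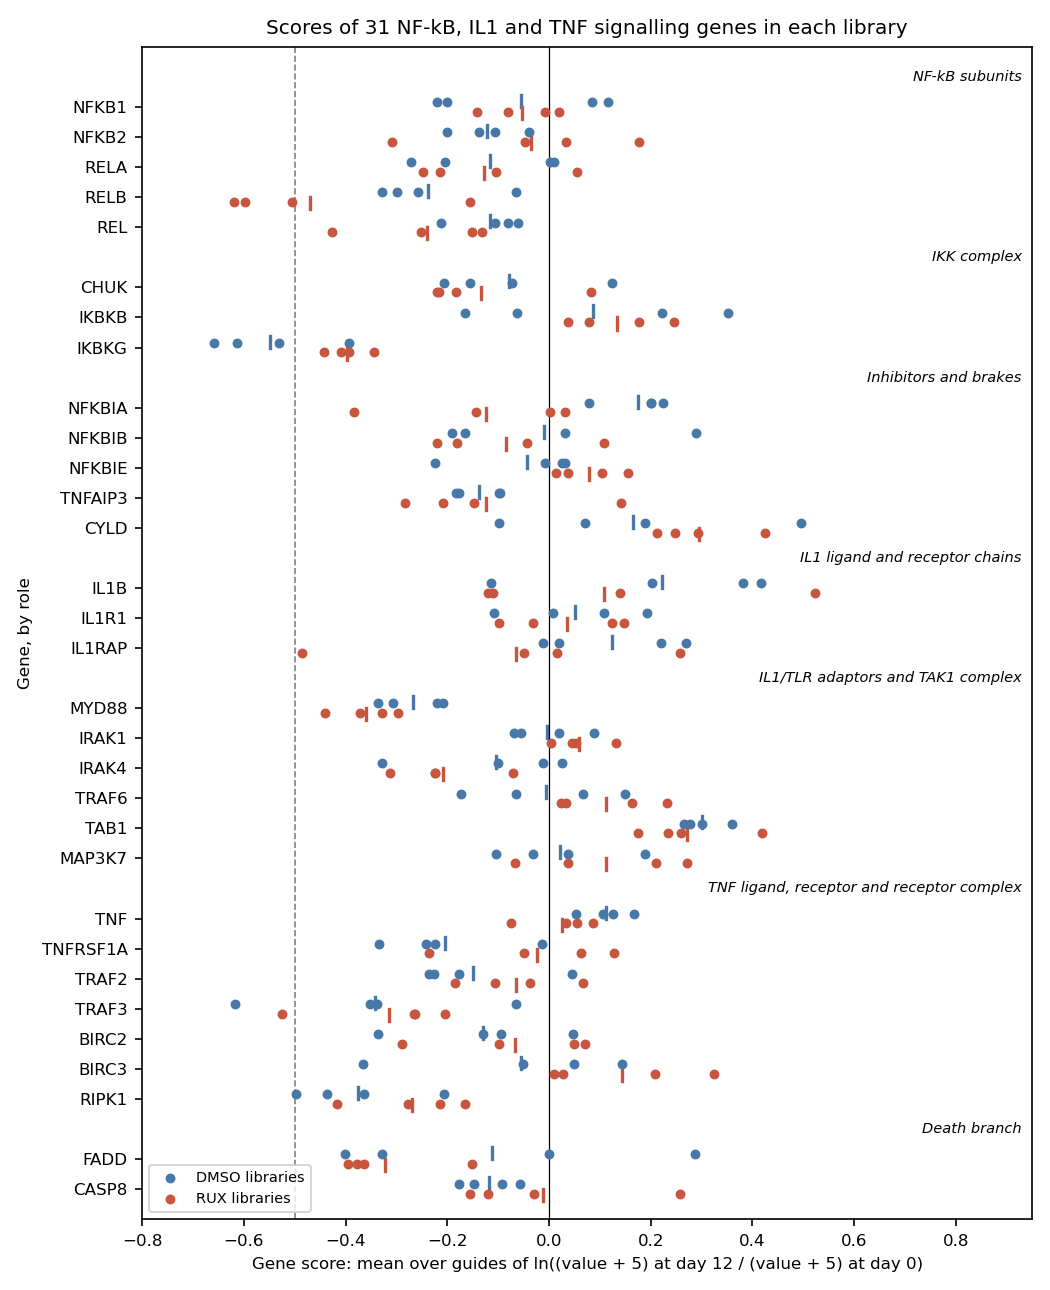
Score of each of the 31 genes in each library of day 12 (horizontal axis, natural log), grouped by role. Points are libraries, short bars are means of 4, and the dashed line marks −0.5. IKBKG is the only gene with its DMSO mean left of the line, RELB has 3 RUX libraries left of it, and DMSO and RUX points separate without overlap only for NFKBIA.

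Among the inhibitors and brakes, NFKBIA and CYLD scored above 0 under DMSO. NFKBIA encodes IkBα, the inhibitor that NF-kB itself induces, and lies on chr14:35401079-35404749. Its libraries gave 0.22, 0.08, 0.20 and 0.20 under DMSO and 0.03, 0.00, −0.14 and −0.38 under RUX. Every RUX library lay below every DMSO library, with RUX replicate 4 the lowest. All 4 guides were lower under RUX than under DMSO, by −0.27, −0.11, −0.42 and −0.40. RELB also had 4 guides lower under RUX, IKBKG, CYLD and TRAF6 had 0 of 4 lower, and the share over all genes was not counted. The NFKBIA mean went from 0.18 ± 0.07 to −0.12 ± 0.19 (SD, n = 4), a difference of −0.30 with a 95% confidence interval of −0.51 to −0.09. This was the largest difference between conditions among the 31 genes, and it did not pass the correction over all genes (limma adjusted p = 0.46, exact permutation p = 0.029, the smallest that 35 splits allow, adjusted to 0.58).

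NFKBIA was the only 1 of 31 genes, or 3.23%, whose DMSO and RUX libraries did not overlap, and 4.94% of all genes were like it (2.99% with RUX lower and 1.96% with RUX higher). The count therefore did not exceed the background. Without RUX replicate 4 the NFKBIA difference was −0.21, and IL1RAP, at −0.30, was then the lowest of the 31 genes. IL1RAP was also the lowest with a day 0 minimum of 100, at −0.34. FADD was the lowest with edgeR and with DESeq2, at −0.26 in each, and without DMSO replicate 1, at −0.31.

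CYLD, a deubiquitinase that takes activating chains off the pathway's proteins, had the highest score under RUX. Its libraries gave −0.10, 0.19, 0.07 and 0.50 under DMSO and 0.21, 0.43, 0.29 and 0.25 under RUX. All RUX libraries lay above 0 while the DMSO libraries spread on both sides of it, and the groups overlapped. Mean scores were 0.16 ± 0.25 and 0.29 ± 0.09 (SD, n = 4), and limma gave adjusted p = 0.69 for RUX against day 0. The other IkB genes, NFKBIB and NFKBIE, scored −0.01 and −0.04 under DMSO and −0.08 and 0.08 under RUX. TNFAIP3, which encodes the ubiquitin-editing brake A20, scored −0.14 ± 0.05 and −0.12 ± 0.19. Of these 5 inhibitory genes, 0 passed limma in any comparison.

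On the IL1 side, the ligand and its receptor chains lay above 0 under DMSO. IL1B, the secreted cytokine, gave 0.42, −0.11, 0.20 and 0.38 under DMSO and −0.11, 0.52, 0.14 and −0.12 under RUX. Each condition held libraries on both sides of 0, and the spread of 0.24 and 0.30 (SD, n = 4) exceeded the means of 0.22 and 0.11. Of its 3 guides, sg_9379 with 66 reads at day 0 averaged 0.75 under DMSO, and the other pair averaged 0.11 and −0.19. IL1R1, the receptor that binds IL1, scored 0.05 and 0.04, and IL1RAP, its accessory chain, 0.12 ± 0.14 and −0.07 ± 0.31.

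Among the adaptors and kinases below the receptors, MYD88 was lowest and TAB1 highest. MYD88, the adaptor of IL1 and Toll-like receptors, is given in full after its values were seen. Its libraries gave −0.22, −0.21, −0.34 and −0.31 under DMSO and −0.44, −0.33, −0.37 and −0.30 under RUX. All 8 lay below 0 and the groups overlapped. MYD88 scored −0.27 ± 0.06 under DMSO and −0.36 ± 0.06 under RUX (SD, n = 4), with limma adjusted p = 0.68 and 0.50. Guide sg_12006 averaged −0.64 in both conditions, and the other 3 guides lay between −0.36 and 0.07.

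TAB1, which activates the TAK1 kinase, gave 0.26, 0.30, 0.36 and 0.28 under DMSO and 0.26, 0.42, 0.23 and 0.18 under RUX. All 8 libraries lay above 0 and the groups overlapped. Its guides stood at 135% of day 0 under DMSO and 131% under RUX. The mean score was 0.30 ± 0.04 under DMSO and 0.27 ± 0.10 under RUX (SD, n = 4), the highest of the 31 genes under DMSO. The 95% confidence interval was −0.01 to 0.61 under DMSO and −0.04 to 0.59 under RUX, with limma adjusted p = 0.60 and 0.64. Of its guides, 3 averaged between 0.50 and 0.52 under DMSO, and sg_28131, with 45 reads at day 0, averaged −0.33.

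MAP3K7, which encodes TAK1 itself, scored 0.02 ± 0.13 under DMSO and 0.11 ± 0.16 under RUX. The ubiquitin ligase TRAF6 scored −0.01 ± 0.14 and 0.11 ± 0.10, and the kinases IRAK1 and IRAK4 scored 0.00 ± 0.07 and −0.10 ± 0.16 under DMSO and 0.06 ± 0.05 and −0.21 ± 0.10 under RUX (SD, n = 4). None of these 4 passed limma.

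**Figure D3:**
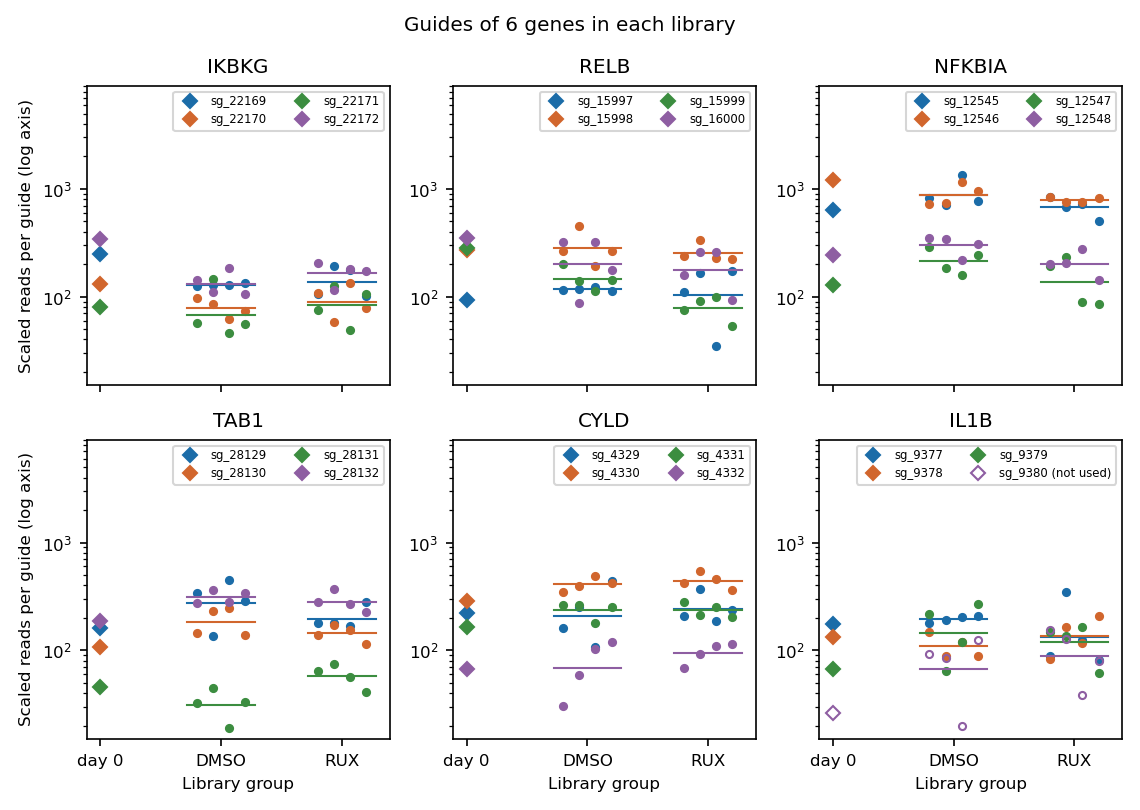
Scaled reads of each guide (log axis) at day 0, in the 4 DMSO libraries and in the 4 RUX libraries for IKBKG, RELB, NFKBIA, TAB1, CYLD and IL1B. Diamonds are day 0, points are single libraries in the order of their replicate numbers, and lines are geometric means of 4. Guides of the same gene differ, as with RELB, where sg_15999 lies below its day 0 value in all 8 libraries and sg_15997 in only 1, and open symbols mark the IL1B guide that had too few reads at day 0 to be used.

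On the TNF side, 6 of 7 genes scored below 0 under DMSO and 5 of 7 under RUX, where 68.5% and 71.5% of all genes did. TNF, the ligand, scored 0.11 ± 0.05 and 0.03 ± 0.07, and TNFRSF1A, its main receptor, −0.20 ± 0.14 and −0.02 ± 0.16 (SD, n = 4). RIPK1, the kinase that carries ubiquitin chains at the receptor and can also start cell death, had the second lowest score under DMSO and is given in full for that. Its libraries gave −0.44, −0.21, −0.50 and −0.36 under DMSO and −0.42, −0.28, −0.21 and −0.16 under RUX. All 8 lay below 0 and the groups overlapped. Its mean was −0.38 under DMSO (95% confidence interval −0.73 to −0.02, limma adjusted p = 0.55) and −0.27 under RUX (adjusted p = 0.70). Guide sg_22840 averaged −0.56 under DMSO and −0.67 under RUX, and sg_22837 averaged −0.55 and −0.12. Of the 4 RIPK1 guides, 2 averaged below −0.5 under DMSO and 1 under RUX, and the highest guide average was −0.16 under DMSO and −0.10 under RUX.

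TRAF3, which restrains the non-canonical arm by keeping its kinase NIK unstable, scored −0.34 ± 0.23 under DMSO and −0.31 ± 0.14 under RUX (SD, n = 4). Its libraries gave −0.35, −0.07, −0.34 and −0.62 under DMSO and −0.27, −0.53, −0.26 and −0.20 under RUX. All 8 lay below 0 and the groups overlapped, but its guides ran from −1.06 to 0.25 under RUX. TRAF2, which recruits the ligases, scored −0.15 and −0.07, and BIRC2, the ligase cIAP1, −0.13 and −0.07. BIRC3, the related ligase cIAP2, lies next to BIRC2 on chromosome 11. It gave 0.05, −0.05, −0.37 and 0.14 under DMSO and 0.01, 0.21, 0.33 and 0.03 under RUX. The lowest DMSO library was the noisier replicate 3, every RUX library lay above 0, and the groups overlapped. Its difference of 0.20 (95% confidence interval −0.03 to 0.43, limma adjusted p = 0.61) was the largest upward one of the 31 genes, but it was 0.10 without DMSO replicate 3, and TRAF2, at 0.15, was then the largest.

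In the death branch, FADD, the adaptor that brings CASP8 to the receptor complex, scored −0.11 ± 0.32 under DMSO and −0.32 ± 0.11 under RUX (SD, n = 4). Its DMSO libraries ran from −0.40 to 0.29, so the DMSO spread covered every RUX library. CASP8, the protease that starts this form of death, scored −0.12 ± 0.05 and −0.01 ± 0.19. Neither passed limma, at adjusted p = 0.65 and 0.79 for RUX against DMSO.

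Between RUX and DMSO, limma called 0 of the 31 genes, and it called 0% of all genes as lower and 0% as higher. Of the 31 genes, edgeR and DESeq2 also called 0. Over all genes, edgeR called 4 lower and 1 higher, and DESeq2 called 48 lower and 4 higher. An unadjusted p under 0.05 was reached by 1 of the 31 genes, NFKBIA, and by 8.94% of all genes. The differences ran from −0.30 to 0.20, with a median of 0.01 against −0.01 for all genes. Their 95% confidence intervals reached from 0.18 to 0.29 to each side of the difference, and no interval went below −0.51 or above 0.43. The interval is not the limit of what could be called, since differences of up to 0.68 among all genes were not called either.

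**Figure D4:**
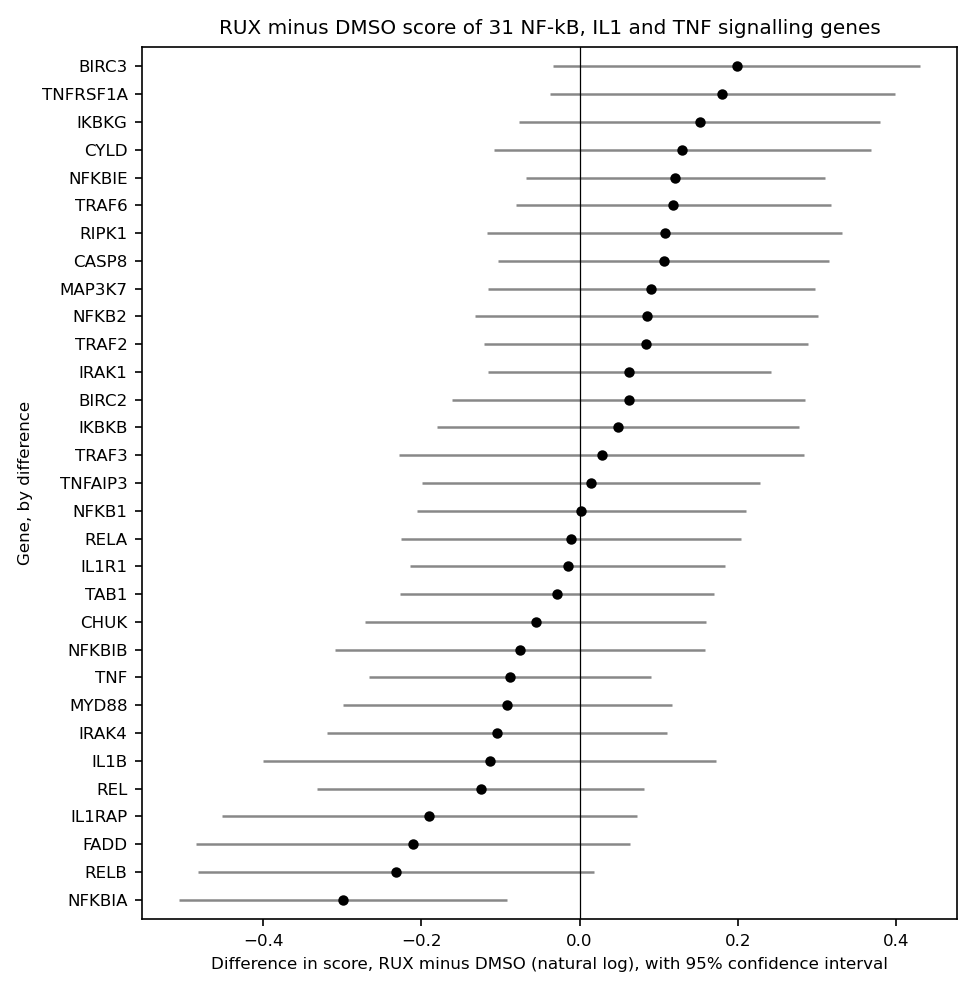
Difference in score between RUX and DMSO (horizontal axis, natural log) for each of the 31 genes, sorted by difference. Points are estimates and lines 95% confidence intervals from limma's moderated standard error. The line of NFKBIA, at −0.51 to −0.09, is the only one that does not reach 0.

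Guides were also counted one by one. Of the 123 guides, 15 averaged below −0.5 under DMSO and 19 under RUX, that is 12.2% and 15.4%, where all targeting guides gave 11.8% in each. Among 990 non-targeting guides the shares were 3.03% and 0.808%, but these had a median of 494 reads at day 0 against 234, and the part of depth in that gap was not tested. In 247 sets of 4 non-targeting guides, scores ran from −0.50 to 0.29 under DMSO and from −0.35 to 0.28 under RUX. Below these ranges lay 1 of the 31 genes under DMSO (IKBKG), against 4.24% of all genes, and 3 under RUX (RELB, IKBKG and MYD88), against 10.7% of all genes. Above them lay 1 gene under DMSO (TAB1), against 1.8% of all genes, and 1 under RUX (CYLD), against 1.49%. The median SD between the 4 libraries was 0.13 under DMSO and 0.14 under RUX for the 31 genes, and 0.14 and 0.13 for all genes.

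Another 90 genes of the same pathways were scored beside them, and limma called 0 of the 90 in each of the 3 comparisons. Their median was −0.09 under DMSO and −0.07 under RUX. A single gene of the 90, FBXW11, lay below −0.5, in both conditions. FBXW11 is an F-box subunit of the ubiquitin ligase that recognises phosphorylated IkB and also other substrates. Its libraries gave −0.70, −0.65, −0.85 and −0.93 under DMSO and −0.58, −0.58, −0.66 and −0.57 under RUX. All 8 lay below −0.5 and the groups overlapped. Its mean was −0.78 ± 0.13 under DMSO and −0.60 ± 0.04 under RUX (SD, n = 4), with limma adjusted p = 0.076 and 0.22. Without the mean-variance trend, limma called FBXW11 in both conditions, at adjusted p = 0.0091 and 0.049, and DESeq2 also called it in both.

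DMSO and RUX libraries did not overlap for 8 of the 90 genes, or 8.89%, beside the 4.94% of all genes. RUX was higher for 5 of them. CFLAR, which blocks CASP8, scored 0.00 under DMSO and 0.34 under RUX, TNIP1, a partner of A20, −0.19 and 0.15, and IL18RAP, a chain of the interleukin 18 receptor, −0.28 and 0.04. FASLG, the ligand of the death receptor FAS, scored −0.22 and 0.05, and UBE2N, the ubiquitin-conjugating enzyme that works with TRAF6, −0.04 and 0.21. RUX was lower for the other 3. IL1A, the sister cytokine of IL1B, scored 0.10 and −0.03, IL18R1 scored −0.07 and −0.19, and TNFRSF10B, a TRAIL receptor, 0.16 and −0.04. The largest of these differences, 0.34 for TNIP1 and for CFLAR, had limma adjusted p = 0.42 and 0.40.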

How the data were processed

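Guides were counted by the authors with MAGeCK, and the deposited table holds 1 signal value per guide and library, scaled by the authors. Each signal value was a whole read count times 1 factor per library (100% of values within 0.001 of a whole number). An automated check accepted this for all but 2 libraries, day 0 and RUX replicate 1, whose factors lie near 1, and recovered reads of all 9 libraries were used in edgeR and DESeq2. The beta scores and copy number correction of the study were not used here.

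Libraries were rescaled by the median ratio to the geometric mean over libraries, taken over the non-targeting guides. Guides needed a scaled day 0 value of at least 30, genes at least 2 guides, and the pseudocount was 5. The natural log scores of all genes entered limma 3.58.1 (R 4.3.3) with 1 mean per condition and a mean-variance trend on the mean score. Calls needed p under 0.05 after Benjamini-Hochberg adjustment across the whole table, and intervals used limma's moderated standard error. The two-sided exact permutation test compared 4 with 4 libraries. The form of the median ratio and the covariate of the trend were settled after counts of calls over all genes had been seen, and their alternatives are given in the closing section. The scoring and limma steps were run on simulated data with a single dispersion for all guides. The check covered only whether median RUX minus DMSO estimates lay near the changes put in, with no criterion on power or false calls.

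All 31 measured genes are named with both scores. Library values are given for genes below −0.5, among the 3 highest scores of a condition, or with conditions that do not overlap, and for RELB, MYD88, RIPK1 and TRAF3, which were added after their values were seen. Other pathway genes are named where they lay below −0.5 or did not overlap. The genes and lists were chosen with earlier results of these data known. The scan of Cas9 targets and the exon printed were also chosen after the IKBKG score was seen. Gene positions came from GENCODE 44 (GRCh38). They were found for 17949 genes through the current symbol and for 983 through a former one, and 182 genes stayed without a position.

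Alternatives were the deposited scaling, library totals, a median ratio to day 0, pseudocounts of 1 and 20, no day 0 minimum and a minimum of 100, the median over guides, the farthest guide left out, no trend, a trend on the mean ln value, the median of 20 neighbouring genes subtracted, a replicate block, each library left out, a minimum share of a gene's guides also below −0.5, and counts of each gene's summed reads in edgeR 4.0.16 and in DESeq2 1.42.0.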

Additional observations from a re-analysis of the deposited data

Results flagged for a closer look

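In each condition, 1 library lying far from the other 3 by Dixon's 95% criterion was looked for in every gene, which made 62 groups of 4 libraries. Chance alone gives about 3.1 such groups, and 4 were found. CHUK scored 0.0834 in RUX replicate 4, while the other RUX libraries lay between −0.22 and −0.18. FADD scored −0.15 in RUX replicate 2, and the others lay between −0.39 and −0.36. NFKBIA scored 0.0795 in DMSO replicate 2, with the others between 0.20 and 0.22. NFKBIE scored −0.22 in DMSO replicate 3, the library with the widest spread of non-targeting guides, with the others between −0.01 and 0.03.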

How the results depend on the processing

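Of 2139 recomputed scores and differences of the 31 genes over 23 alternatives, 2022 kept their call and moved by less than 1 SD between libraries. A further 116 moved by more without a call, and 1 gained a call. The sign changed in 158, of which 2 had a size over 0.2. The 2022 is partly fixed in advance and does not measure robustness. No trend, a trend on the mean ln value and a replicate block change no score. Leaving out 1 library cannot move a mean by 1 SD. In those settings only a call could change. The gained call was IKBKG under DMSO with DESeq2 (1 of the 31 genes called, adjusted p = 0.023), and its limma and edgeR alternatives gave adjusted p from 0.084 to 0.81. The median of the 31 genes under DMSO was −0.0123 with the deposited scaling, −0.111 with a day 0 minimum of 100, 0.0405 with neighbouring genes subtracted, and −0.0027 with edgeR and with DESeq2. Under RUX it was 0.0129 with the deposited scaling, 0.000369 with library totals, −0.0186 with the median over guides and 0.0316 with neighbours subtracted, and RUX against DMSO it was 0.0591 with library totals. The number of the 31 genes below −0.5 under DMSO was 0 with the deposited scaling, a pseudocount of 20 or neighbours subtracted. Under RUX it was 2 (RELB and IKBKG) with a day 0 minimum of 100, 1 (IKBKG) with the farthest guide left out, and from 0 to 1 with a library left out, the 1 being RELB at −0.57 without RUX replicate 2. FBXW11 was the 1 other pathway gene called under DMSO with a pseudocount of 20, no trend or DESeq2, and under RUX with no trend or DESeq2.
Over all genes, calls under DMSO numbered 68 and ran from 0 (pseudocount of 1, median over guides or farthest guide left out) to 278 (no trend), and under RUX they numbered 104 and ran from 0 to 329. On recovered reads, edgeR called 103 genes under DMSO and 181 under RUX, and DESeq2 called 167 and 235. RUX against DMSO gave 0 calls except with edgeR (5), DESeq2 (52) and a trend on the mean ln value (8), and no member was among them. The deposited scaling moved the median of all genes from −0.08 to −0.02 under DMSO and from −0.09 to −0.02 under RUX, so counts above 0 depend on the scaling. The form of the median ratio and the trend on the mean ln value were added after the data were seen, and neither changed a call among the 31 genes. Libraries of the same replicate number showed no clear shared deviations, with correlations from −0.13 to 0.03 and 1 of 4 matching its own number best. The labels do not say whether they were handled together, and these correlations cannot settle it. With the number as a replicate block, limma called 0 of the 31 genes in each comparison and 31, 67 and 0 of all genes. The causes of these changes were not tested. The comparisons with day 0 rest on 1 day 0 library, a median of 234 reads a guide and no copy number profile. The changes of IKBKG, RIPK1 and FBXW11 under DMSO had intervals that leave out 0. The main limma fit called none of them after adjustment over all genes, while DESeq2 called IKBKG and FBXW11. No smallest detectable change was estimated.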
